A study of Saccharomyces cerevisiae with 36 samples.

Results

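Translation factors are the soluble proteins that bring mRNA and the initiator tRNA to the ribosome, move it along the message and release the finished chain. The genes described here are 39 of the 7126 in the deposited count table, taken by name from a list of initiation, elongation and termination factors of budding yeast, and all 39 had enough reads to be tested. RNA was sequenced from 36 cultures, 3 in each of 12 groups made of 4 strains and 3 conditions. Heat shock was 15 min at 37 °C. The second treatment was 10 mM AzC (azetidine-2-carboxylic acid, a proline analogue that is built into proteins and makes them misfold) for 1 h at 25 °C, and untreated cells stayed at 25 °C. In hsf1∆, the gene of the heat shock transcription factor Hsf1 is replaced by kanMX and 3 chaperone genes. These are YDJ1 behind the promoter PADH1, HSC82 behind PTEF1 and SSA2 behind PTDH3. HSF1+ has the same insertion and an added HSF1 gene, and its label also lists LYS2. The strain labelled msn2/4∆ has msn2::hphMX4 and msn4::natMX4, which disrupt the general stress factors Msn2 and Msn4. WT carries none of these changes, and all 4 strains are MATa with his3∆1, leu2∆0, ura3∆0 and met15∆0.

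Initiation in yeast starts with the cap-binding complex eIF4F and the poly(A)-binding protein on the mRNA, and with eIF1, eIF1A, eIF2, eIF3 and eIF5 on the small ribosomal subunit. Elongation depends on eEF1A, which delivers aminoacyl-tRNA, on its exchange factor eEF1B, on eEF2, which translocates the ribosome, and on eEF3, an ATPase found in fungi. In growing yeast these genes are expressed at high levels, and they are known to be turned down together with ribosomal protein genes when growth slows or cells are stressed.

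Libraries held 8159203 to 99558095 counts. In 4 of them the total was at least 42724231 and in the other 32 at most 15448180. Those 4 were replicates 2 and 3 of untreated WT and replicates 1 and 2 of AzC-treated HSF1+, so depth was not spread evenly over the groups. HSF1 itself was at 14.6 ± 2.15 CPM (a gene's count scaled to a common library total with TMM factors; mean ± SD, n = 3) in untreated hsf1∆ and at 55.4 ± 1.52 CPM in untreated HSF1+, so some HSF1 signal was left in hsf1∆. In untreated WT it was at 98.4 ± 3.76 CPM, and HSF1+ differed from WT by -0.83 ± 0.14 on the log2 scale (edgeR adjusted p = 1.43e-05). MSN2 was at 1.41 ± 0.596 CPM in the strain labelled msn2/4∆ and at 132.4 ± 3.12 CPM in WT. MSN4, however, was at 52.9 ± 4.82 CPM in that strain and at 38.4 ± 7.53 CPM in WT, so reads of MSN4 were not lost there. The counts do not show which stretch of MSN4 they came from. The summed level of 6 markers of mating type a cells ran from 326 to 2271 CPM over the libraries. For 6 markers of mating type alpha the sum was 49.65 to 105.8 CPM, with MATALPHA1 at 0 in all libraries, and for 3 sporulation markers it was 14.62 to 40.57 CPM. The part of these markers in the results was not tested. Cultures were grown in triplicate, and the labels do not say whether the 3 had separate founders, so p-values measure only the spread between these cultures. Counts show a gene's share of a culture's mRNA. Fewer cells expressing a gene and less of its RNA per cell cannot be told apart.

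In untreated WT cells, the most abundant members per length were some of the elongation factor genes and the main eIF5A gene. EFB1, the exchange subunit of eEF1B, had 4795 ± 333 CPM per kb of coding sequence (mean ± SD, n = 3). HYP2, the main gene for eIF5A, had 3631 ± 271 CPM per kb, TEF2 had 3372 ± 148 and TEF1 had 2672 ± 99.8, the last pair encoding eEF1A. YEF3, the gene of eEF3, had 2581 ± 209 CPM per kb, which differed from TEF1 by less than the SD. The initiation factors reached lower levels than these, led by SUI1 (eIF1) at 1291 ± 86.6 and TIF11 (eIF1A) at 1151 ± 68.9 CPM per kb. The elongation genes CAM1, EFT1 and EFT2 (the last pair encoding eEF2) lay below SUI1 and TIF11. Levels of TEF1, TEF2, EFT1 and EFT2 depend on how reads shared by near-identical copies were counted. The length used was the coding length, 621 bases for EFB1, 474 for HYP2 and 327 for SUI1. No source used here says whether reads from untranslated ends or the EFB1 intron were counted. Such reads would raise the values of short genes more. At the low end were the 5 subunits of eIF2B, at 102.03 to 152.1 CPM per kb, TIF4632 (the second eIF4G gene) at 46.8 ± 2.11 and ANB1 (the hypoxic eIF5A gene) at 32.9 ± 5.63. YEF3 alone took 19.9% of the counts of the 39 genes in untreated WT.

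Heat shock lowered most translation factor mRNAs in every strain, with or without HSF1. By edgeR's quasi-likelihood test (threshold 0.05 on the p adjusted by Benjamini-Hochberg over the 6109 genes tested), 35 of 39 members fell and 1 rose in hsf1∆, where 38.4% of all genes were called lower and 38.2% higher. In HSF1+, 34 fell and 1 rose (36.5% and 40% of all genes). In labelled msn2/4∆, 37 fell and 1 rose (34% and 43.5% of all genes), and in WT, 35 fell and 0 rose (38.1% and 42% of all genes). The 39 members had a median log2 change of -1.49 in hsf1∆, -1.20 in HSF1+, -1.70 in labelled msn2/4∆ and -1.54 in WT, with all genes tested at -0.01, 0.03, 0.11 and 0.05 in the same strains. Falls of at least 2-fold were seen for 30 members in hsf1∆, 25 in HSF1+, 32 in labelled msn2/4∆ and 31 in WT, against 17.4%, 15.5%, 15.7% and 17.3% of all genes. In all 4 strains alike, 33 members fell, 24 of them at least 2-fold in each. The 6 that did not were TIF4632, SUI1, CAM1, EFB1, ANB1 and DED1. The share of a library's counts that the 39 members held was 1.01 ± 0.236% in heat-shocked hsf1∆ (mean ± SD, n = 3) and 3.09 ± 0.102% in untreated hsf1∆, and it was 1.43 ± 0.232% in heat-shocked WT and 3.84 ± 0.145% in untreated WT.

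**Figure D1:**
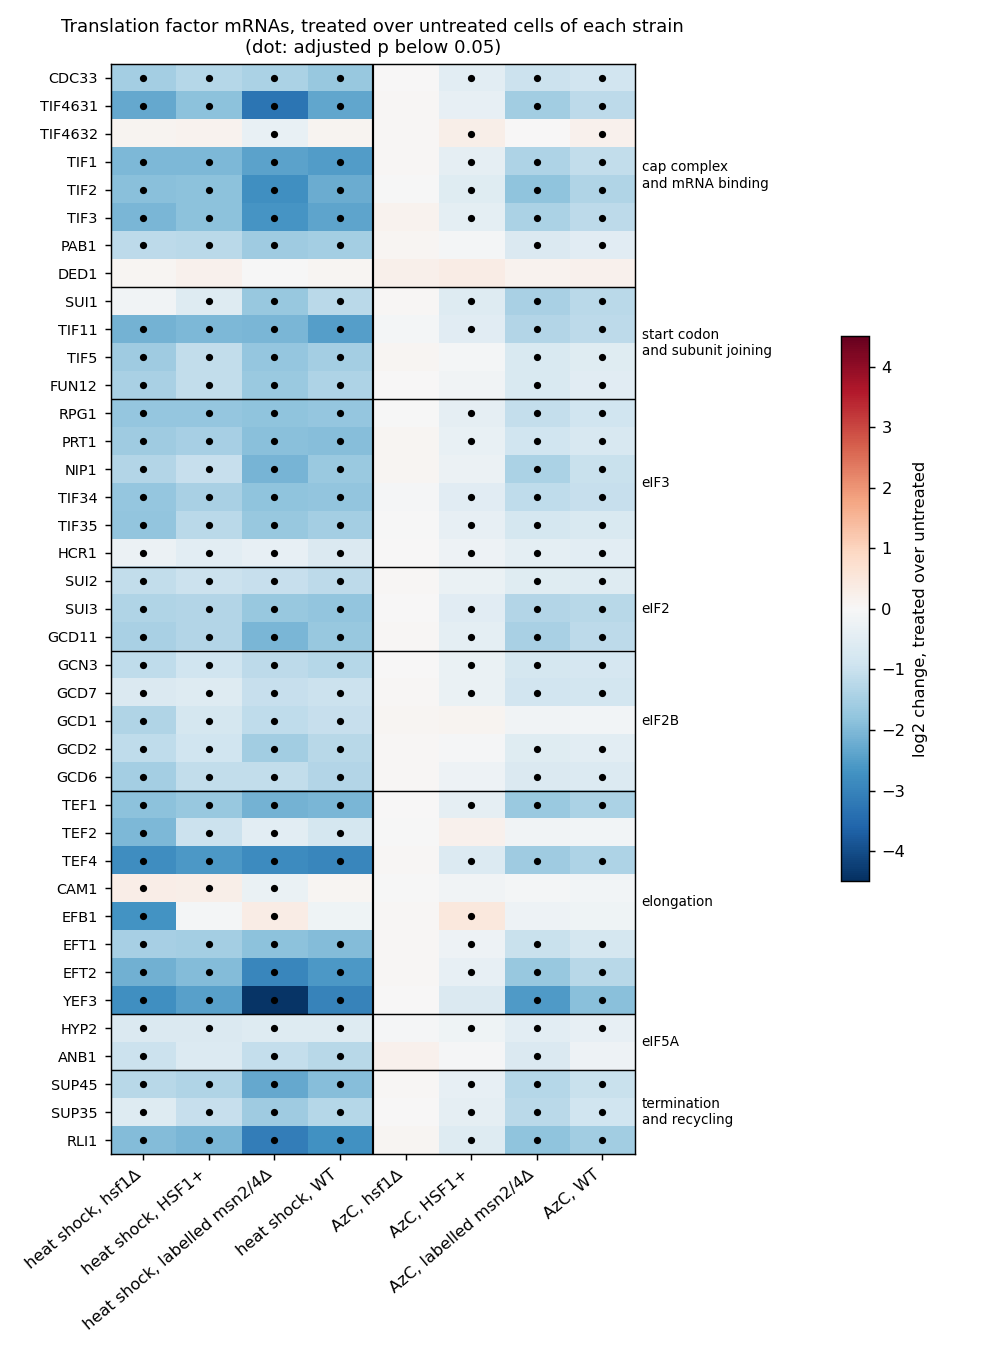
Heat map of the log2 change of each of the 39 translation factor mRNAs (rows, grouped by role) after heat shock (left 4 columns) and after AzC (right 4 columns), treated over untreated cells of the same strain; dots mark an adjusted p below 0.05. The AzC column of hsf1∆ has no dot, and TIF4632, DED1, CAM1 and EFB1 stand out from the falls after heat shock in most strains. EFB1 did fall in hsf1∆, and TIF4632 and CAM1 fell in labelled msn2/4∆.

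The cap complex was lowered, while the scanning helicase gene DED1 and the second eIF4G gene did not follow it in most strains. CDC33 (eIF4E, which binds the cap) had a log2 change of -1.54 ± 0.12 (± standard error of the fit) in hsf1∆, -1.29 ± 0.12 in HSF1+, -1.43 ± 0.12 in labelled msn2/4∆ and -1.71 ± 0.12 in WT. TIF4631, the main eIF4G gene, fell further, at -2.29 ± 0.23, -1.86 ± 0.22, -3.28 ± 0.24 and -2.35 ± 0.23 in the same strains. DED1, the helicase that helps 40S subunits scan structured leaders, did not pass in any strain. Its CPM were 349, 316 and 257 in heat-shocked WT and 276, 339 and 252 in untreated WT, so the groups overlapped. Of the 8 genes of the cap complex and mRNA binding, 6 fell in hsf1∆, 6 in HSF1+, 7 in labelled msn2/4∆ and 6 in WT. PAB1, the poly(A)-binding protein gene, changed by -1.17 ± 0.14 in hsf1∆ and -1.54 ± 0.14 in WT.

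On the small subunit, all 6 measured eIF3 genes, all 3 eIF2 genes and all 5 eIF2B genes fell after heat shock in each strain. RPG1, the gene of the large eIF3a subunit, had 316, 213 and 190 CPM in heat-shocked hsf1∆ and 804, 857 and 753 CPM in untreated hsf1∆, a log2 change of -1.75 ± 0.14, and its change was -1.74 ± 0.14 in WT. The groups of hsf1∆ did not overlap. GCD11, the GTP-binding subunit of eIF2, changed by -1.46 ± 0.14 in hsf1∆ and -1.71 ± 0.14 in WT. Changes of the eIF2B genes, whose complex recharges eIF2 with GTP, ran from -1.52 ± 0.12 for GCD6 to -0.64 ± 0.11 for GCD7 in hsf1∆, and from -1.33 ± 0.12 for GCD6 to -0.98 ± 0.11 for GCD7 in WT. HCR1, a loosely bound eIF3 subunit, changed least of the eIF3 genes, by -0.27 ± 0.05 in hsf1∆ and -0.66 ± 0.05 in WT. The start codon and subunit joining genes TIF5 (eIF5), FUN12 (eIF5B) and TIF11 fell in every strain, TIF11 with the largest changes, -2.12 ± 0.09 in hsf1∆ and -2.47 ± 0.09 in WT. SUI1, whose product eIF1 keeps start codon choice strict, fell in 3 strains. It had 224, 195 and 208 CPM in heat-shocked hsf1∆ and 252, 230 and 220 CPM in untreated hsf1∆, overlapping groups with a change of -0.16 ± 0.11 that did not pass (adjusted p = 0.19). Its change was -1.21 ± 0.11 in WT.

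The largest changes in WT were those of YEF3, TEF4 and RLI1, which act in elongation and recycling. Of 8 elongation genes, 7 fell and 1 rose in hsf1∆, 6 fell and 1 rose in HSF1+, 7 fell and 1 rose in labelled msn2/4∆, and 6 fell and 0 rose in WT. YEF3 had 1915, 727 and 359 CPM in heat-shocked WT and 7653, 8845 and 7773 CPM in untreated WT, so the groups stayed apart although the heat-shocked cultures differed widely. Its log2 change was -3.02 ± 0.54 in WT and -4.41 ± 0.58 in labelled msn2/4∆. RLI1, the ATPase that splits ribosomes after termination, changed by -1.94 ± 0.23 in hsf1∆, -2.04 ± 0.23 in HSF1+, -3.10 ± 0.24 in labelled msn2/4∆ and -2.73 ± 0.24 in WT. The release factor genes SUP45 (eRF1) and SUP35 (eRF3) fell in every strain, with changes of -1.23 ± 0.14 for SUP45 and -0.58 ± 0.10 for SUP35 in hsf1∆, and -1.90 ± 0.14 and -1.30 ± 0.10 in WT. HYP2, whose eIF5A eases peptide bonds at difficult stretches such as prolines, changed by -0.64 ± 0.07 in hsf1∆ and -0.56 ± 0.07 in WT.

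In the median of the members, replicate 1 of the heat-shocked cultures moved less than the others. Over the 39 members, the median log2 change by replicate was -1.20, -1.58 and -1.73 in hsf1∆, -0.99, -1.28 and -1.30 in HSF1+, -1.53, -1.77 and -1.81 in labelled msn2/4∆, and -1.22, -1.71 and -1.85 in WT. With replicates 2 and 3 alone, 35, 36, 38 and 36 members were called in those strains, with 34, 34, 37 and 35 of them lower. For ribosomal protein genes the median by replicate was -3.97, -4.13 and -3.48 in hsf1∆, so replicate 3 moved least. The same held in HSF1+ and labelled msn2/4∆. In WT replicate 1 moved least for these genes, with -3.18, -3.64 and -3.58.

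After AzC, translation factor mRNAs fell in the strains that have HSF1, with smaller medians than after heat shock, and no member passed in hsf1∆. In hsf1∆, 0 of 39 members were called by edgeR (0% of all genes were called higher and 0.0164% lower, which is 1 gene), 0 members had an unadjusted p below 0.05 against 2.85% of all genes, and DESeq2 called 0 members. In HSF1+, 23 fell and 2 rose (21.9% and 23% of all genes). In labelled msn2/4∆, 33 fell and 0 rose (31% and 36% of all genes), and in WT, 32 fell and 1 rose (32.7% and 34.2% of all genes). The median log2 change of the members was 0.04 in hsf1∆, -0.32 in HSF1+, -0.97 in labelled msn2/4∆ and -0.83 in WT. Falls of at least 2-fold numbered 0 in hsf1∆, 0 in HSF1+, 18 in labelled msn2/4∆ and 15 in WT, against 0%, 1.18%, 12.3% and 11.1% of all genes. By role, 6 of 8 cap complex genes, 4 of 4 start codon genes, 6 of 6 eIF3 genes, 3 of 3 eIF2 genes, 4 of 5 eIF2B genes, 5 of 8 elongation genes, 1 of 2 eIF5A genes and 3 of 3 termination and recycling genes fell in WT. In HSF1+, labelled msn2/4∆ and WT alike, 23 members fell. The count in HSF1+ was 15 without untreated replicate 1 or without AzC replicate 1, and 16 without replicate 2 of either group.

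YEF3, RLI1 (-1.57 ± 0.23) and TEF1 (-1.42 ± 0.16) had the largest changes after AzC in WT, and GCD1, an eIF2B subunit gene, passed in no strain. TEF4, a gene for the gamma subunit of eEF1B, had 1917, 1577 and 1816 CPM in AzC-treated hsf1∆ and 1628, 1795 and 1675 CPM in untreated hsf1∆. In WT it had 1218, 985 and 998 CPM after AzC and 2742, 2965 and 2607 CPM untreated. The groups overlapped in hsf1∆ and did not in WT, where the log2 change was -1.38 ± 0.13 (edgeR adjusted p = 2.1e-10). YEF3 changed by -0.66 ± 0.51 in HSF1+ (adjusted p = 0.299), by -2.55 ± 0.53 in labelled msn2/4∆ and by -1.88 ± 0.52 in WT. The members that rose were TIF4632, by 0.25 ± 0.07 in HSF1+ and 0.19 ± 0.07 in WT, and EFB1, by 0.47 ± 0.14 in HSF1+. The rise of TIF4632 in WT passed in 10 of 15 alternatives, and was lost without untreated WT replicate 3, without AzC-treated WT replicate 1 or 2, with replicates 2 and 3 alone and with the compared groups alone. Heat shock and AzC were each set against the same untreated libraries, so the paired values of a strain are not independent.

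AzC and heat-shocked WT cells were also set against each other directly. By edgeR, 32 of 39 members were higher after AzC and 0 lower, where 30.5% of all genes were higher and 32.7% lower. TEF4 was higher by 1.55 ± 0.13 on the log2 scale, TIF1 (eIF4A, the helicase of eIF4F) by 1.40 ± 0.10 and TIF11 by 1.29 ± 0.09. SUI1 differed by -0.02 ± 0.11 and EFB1 by 0.02 ± 0.14, and neither passed. The treatments differ in temperature and in duration as well as in kind.

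Whether the responses differ between strains was tested as the difference of the changes. For heat shock in hsf1∆ against HSF1+, 4 members had a lower and 1 a higher response in hsf1∆ by edgeR, where 14.2% of all genes were lower and 8.04% higher. EFB1 and TEF2 stood far below the others. EFB1 is the catalytic subunit of eEF1B, which reloads eEF1A with GTP. It had 223.7, 126.99 and 140.4 CPM in heat-shocked hsf1∆ and 1129, 1041 and 1017 CPM in untreated hsf1∆. In HSF1+ it had 2096, 2103 and 1990 CPM after heat shock and 2407, 2131 and 2021 CPM untreated. The hsf1∆ groups stayed far apart and the HSF1+ groups overlapped. The log2 change was -2.70 ± 0.15 in hsf1∆, -0.08 ± 0.14 in HSF1+, 0.34 ± 0.14 in labelled msn2/4∆ and -0.21 ± 0.14 in WT. Its response in hsf1∆ minus that in HSF1+ was -2.62 ± 0.20 (adjusted p = 5.56e-11), and ran from -2.93 to -2.43 under 21 alternatives, past the threshold in each. EFB1 was already lower in untreated hsf1∆ than in untreated HSF1+, with a log2 difference of -1.04 ± 0.14 (adjusted p = 7.6e-07).

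EFB1 lies on chromosome I, 142174 to 143160 on the plus strand of build R64, with an intron that holds the small nucleolar RNA gene SNR18. It is transcribed away from SSA1, a gene for cytosolic Hsp70 and a known target of Hsf1, and 742 bases separate the start codons of these neighbours. SSA1 was looked at because of this position, after the EFB1 values were seen. It had 160, 200 and 228 CPM in heat-shocked hsf1∆ and 72.3, 83.1 and 92.1 CPM in untreated hsf1∆, against 9018, 10794 and 9200 CPM in heat-shocked HSF1+ and 748, 812 and 870 CPM in untreated HSF1+. Its log2 change after heat shock was 1.25 ± 0.14 in hsf1∆ and 3.58 ± 0.16 in HSF1+, and its level in untreated cells differed by -3.29 ± 0.15 on the log2 scale, hsf1∆ over HSF1+ (adjusted p = 3.03e-15). SSA1 is a close copy of SSA2, which the insertion also carries, and the sources used here do not say how shared reads were counted. Within the shared stretch, heat shock elements, the binding letters of Hsf1, were sought as GAANNTTCNNGAA and its reverse complement TTCNNGAANNTTC. There were 3 matches, at 494, 396 and 391 bases before the EFB1 start codon, of which the last 2 overlap. The same matches lie 261, 359 and 364 bases before the SSA1 start codon. At least 1 match was present in 2.1% of 5998 stretches of that length upstream of yeast genes. The shorter TTCNNGAA matched 4 times, where 30.5% of those stretches have at least 1 match. A known Hsf1 target shares this stretch, so these shares do not bear on EFB1 by itself. The part of the matches in the EFB1 values was not tested. The stretch with these matches is shown 5′ to 3′ on the EFB1 strand, read from the R64 genome at chrI:141660-141859, with the matched GAA and TTC units in capitals.
EFB1 and SSA1: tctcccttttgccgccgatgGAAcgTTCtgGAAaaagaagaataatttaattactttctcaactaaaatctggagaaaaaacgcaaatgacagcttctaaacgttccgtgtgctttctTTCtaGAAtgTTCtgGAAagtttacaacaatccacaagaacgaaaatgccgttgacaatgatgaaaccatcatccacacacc

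**Figure D2:**
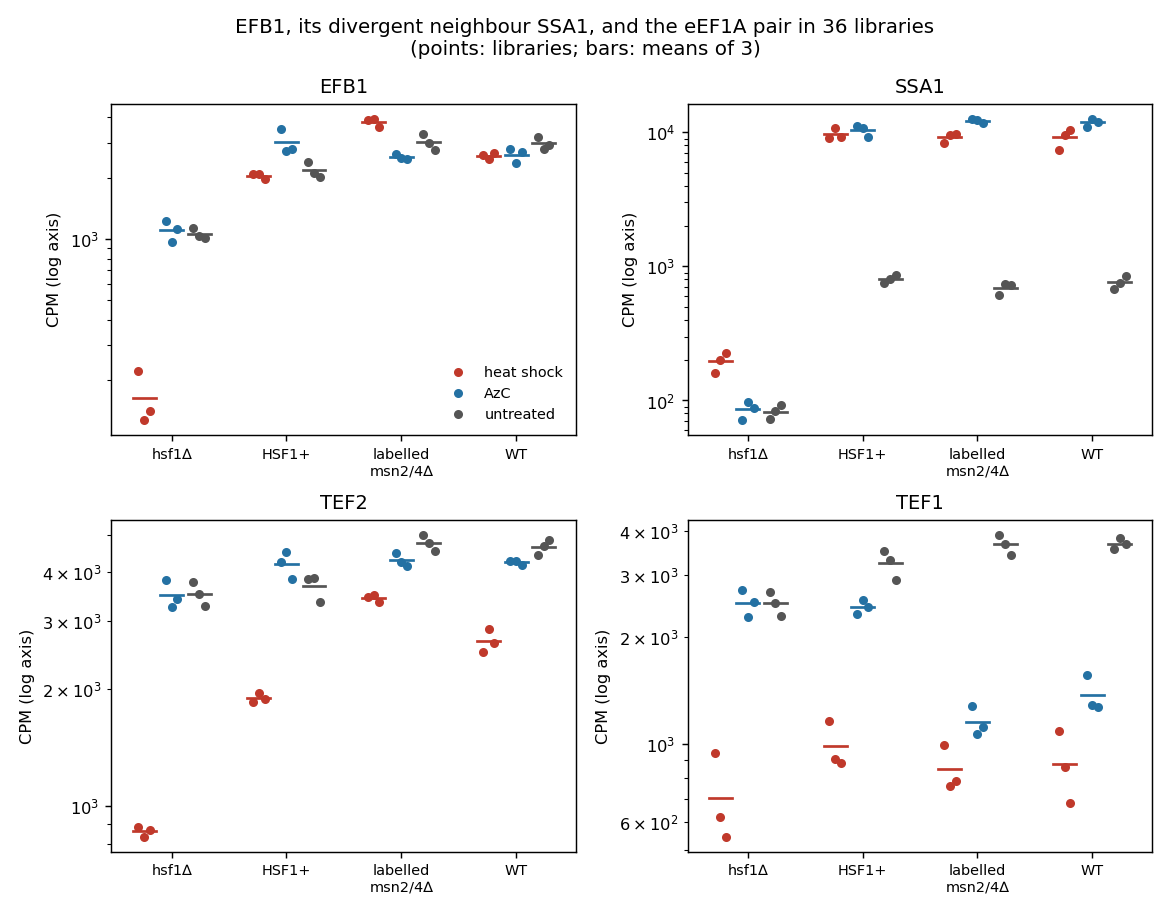
CPM (log axis) of EFB1, of its neighbour SSA1, and of TEF2 and TEF1 in all 36 libraries, with heat-shocked, AzC-treated and untreated cultures side by side within each strain; points are libraries and bars are means of 3. The heat-shocked hsf1∆ libraries lie at 126.99 to 223.7 CPM for EFB1, below every other library, and at 834 to 884 CPM for TEF2.

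TEF2, one of the paired eEF1A genes, had 884, 834 and 869 CPM in heat-shocked hsf1∆ and 3784, 3510 and 3279 CPM in untreated hsf1∆, against 1854, 1961 and 1891 CPM in heat-shocked HSF1+ and 3840, 3865 and 3347 CPM in untreated HSF1+. The groups stayed apart in each strain, and the fall was deeper in hsf1∆. The log2 change was -2.03 ± 0.08 in hsf1∆ and -0.95 ± 0.08 in HSF1+, a difference of -1.08 ± 0.11 (adjusted p = 6.03e-08) that ran from -1.11 to -0.95 under 20 alternatives, past the threshold in each. TEF1 changed by -1.83 ± 0.17 in hsf1∆ and -1.72 ± 0.17 in HSF1+, a difference that did not pass (adjusted p = 0.791). The summed TEF1 and TEF2 counts gave a difference of -0.68 (adjusted p = 0.000476). SUP35 had a higher response in hsf1∆ than in HSF1+, by 0.44 ± 0.14 (adjusted p = 0.0259), and TIF35 and GCD1 had lower ones, by -0.59 ± 0.21 and -0.57 ± 0.18. Those 3 passed in 18, 9 and 13 of 21 alternatives. SUP35 did not pass without untreated HSF1+ replicate 1 or heat-shocked HSF1+ replicate 2 or 3. The 4 lower and 1 higher became 2 lower and 3 higher when scaled by library size alone and 3 of each with RLE scaling. The count of 5 was 9 without heat-shocked hsf1∆ replicate 1 and 3 without heat-shocked hsf1∆ replicate 3 or HSF1+ replicate 1.

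For AzC, 9 members had a higher response in hsf1∆ than in HSF1+ and 0 a lower one (7.55% and 13% of all genes). They were TIF1, CDC33, SUI3, HCR1, EFT2, TEF4, TIF11, SUI1 and SUP35, which had passed as lower in HSF1+ and had not passed in hsf1∆. TEF4 gave the largest of these differences, 0.69 ± 0.17 (adjusted p = 0.00588), followed by SUI1 at 0.63 ± 0.16 (adjusted p = 0.00527). CDC33 and SUP35 passed in 15 of 21 alternatives and EFT2 in 15 of 20, and each of the others in at least 20. TIF1 and EFT2 have near-identical copies. As sums, TIF1 with TIF2 gave 0.50 (edgeR adjusted p = 0.042) and EFT1 with EFT2 gave 0.36 (edgeR adjusted p = 0.0276).

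Between labelled msn2/4∆ and WT the heat shock response of 5 members was lower and of 4 higher (13.9% and 16.3% of all genes). Lower were TIF4631 at -0.92 ± 0.31, SUI1 at -0.48 ± 0.16, TIF4632 at -0.46 ± 0.10, CAM1 at -0.41 ± 0.14 and EFT2 at -0.35 ± 0.13. Higher were EFB1 at 0.54 ± 0.19, TIF11 at 0.41 ± 0.13, TEF2 at 0.33 ± 0.11 and HCR1 at 0.30 ± 0.07. The count was 4 or 5 without untreated WT replicate 1, untreated labelled msn2/4∆ replicate 2 or 3, or heat-shocked labelled msn2/4∆ replicate 2, and 2 were lower and 4 higher when scaled by library size alone. For AzC, 0 members differed between these strains (1.05% of all genes were lower and 0.524% higher), 3 had an unadjusted p below 0.05, DESeq2 called 0, and 1 was called without untreated WT replicate 2.

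HSF1+ differed from WT in its responses too. After heat shock 6 members fell less in HSF1+ and 0 more (4.21% of all genes had a higher and 7.56% a lower response), and after AzC 19 fell less or rose and 0 fell more (11.3% and 11.2% of all genes). TEF1 gave the largest passing difference after AzC, 1.01 ± 0.23 (adjusted p = 0.00252). It had 2328, 2548 and 2442 CPM in AzC-treated HSF1+ and 3514, 3313 and 2905 CPM in untreated HSF1+, against 1565, 1287 and 1271 CPM in AzC-treated WT and 3549, 3823 and 3668 CPM in untreated WT. Neither pair of groups overlapped between the strains, and they were farther apart after AzC. The heat shock count was 22 without heat-shocked WT replicate 1, and the AzC count was 12 without untreated HSF1+ replicate 3 or AzC-treated WT replicate 2. With scaling by library size alone the counts were 3 and 10.

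In untreated cells, 18 members were lower and 3 higher in hsf1∆ than in HSF1+ by edgeR (18.9% and 19.5% of all genes). The split was 5 and 5 when scaled by library size alone, and the median difference of the 39 members was -0.32 with TMM and -0.20 with library size. The count of 21 was 13 without untreated HSF1+ replicate 1 and 12 without its replicate 2. Between HSF1+ and WT 11 were lower and 3 higher (12.6% and 17.5% of all genes), with a count of 8 without untreated HSF1+ replicate 3. With the replicate block, which the correlations of same-numbered cultures call for here, 18 were lower and 3 higher. Labelled msn2/4∆ and WT differed in 0 members by edgeR (0.786% of all genes were lower and 0.262% higher) and by DESeq2, with 1 member at an unadjusted p below 0.05.

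The members that rose in these strain comparisons sat on chromosomes where the typical gene was higher. In HSF1+ over WT, the median log2 difference of the 457 genes tested on chromosome XIII was 0.97, and on the other 15 chromosomes it ran from -0.07 to -0.03. The members that rose were TIF34, NIP1 (both eIF3) and TIF11, and these are all the members on chromosome XIII. TIF34 had 1218, 1155 and 1048 CPM in HSF1+ and 667, 632 and 629 CPM in WT, a difference of 0.83 ± 0.15, with NIP1 at 0.66 ± 0.20 and TIF11 at 0.73 ± 0.09. In hsf1∆ over HSF1+ the medians were 0.60 on chromosome V, 0.52 on VII and 0.29 on II, and -0.14 to -0.02 on the other 13. The risers were GCD11 on V at 0.38 ± 0.13, and TIF4632 at 0.52 ± 0.07 and GCD2 (an eIF2B subunit) at 0.43 ± 0.12 on VII. The 9 members on those 3 chromosomes had a median of 0.11, and of -0.32 once each gene's chromosome median was taken off. For the 30 members elsewhere these medians were -0.35 and -0.22. These are mRNA levels and not DNA copy numbers, and the part of the chromosome medians in the members' differences was not tested. The chromosome medians were computed after the positions of the risers were seen.

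**Figure D3:**
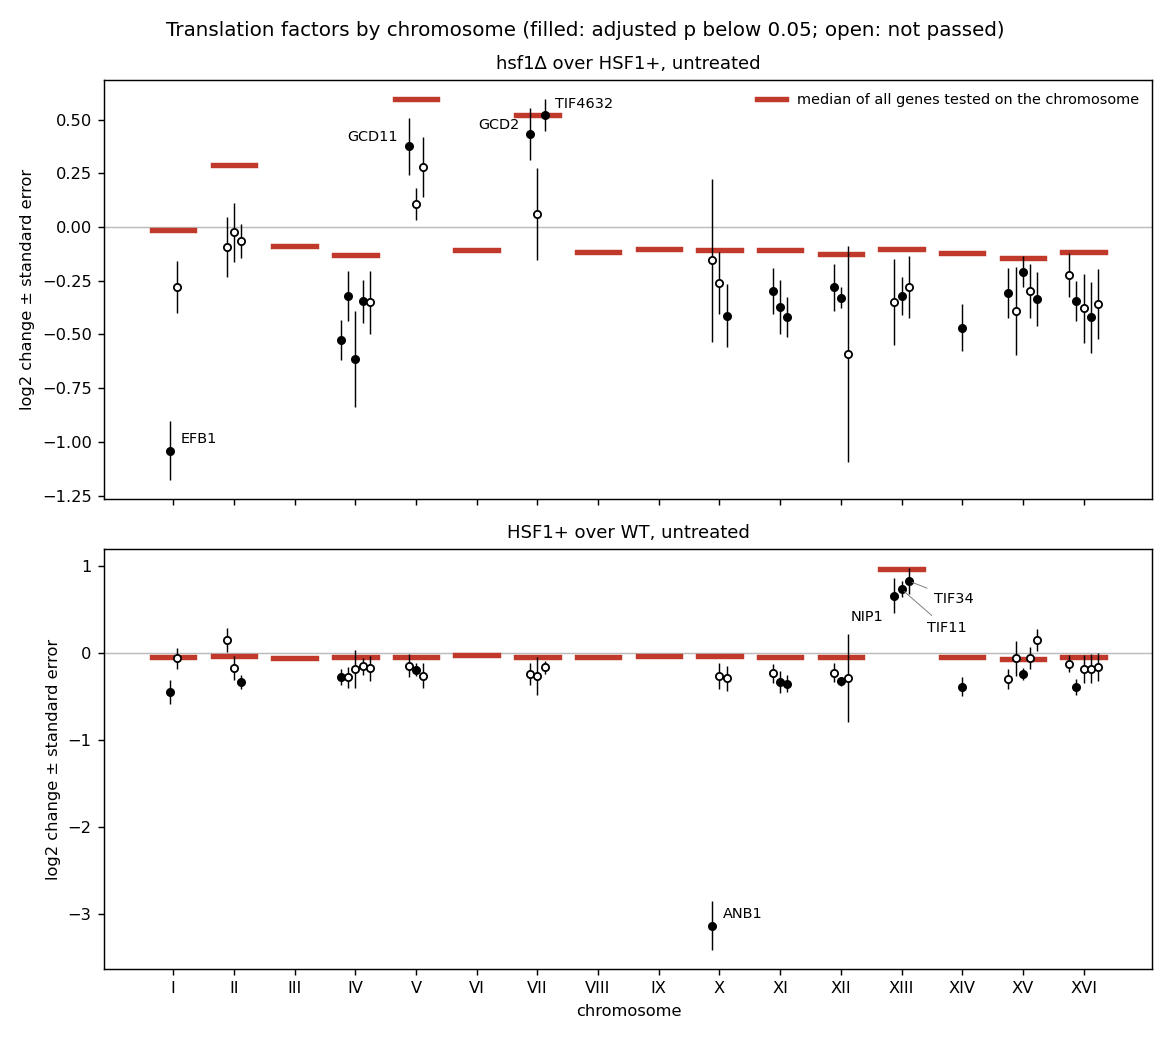
Log2 difference (± standard error) of each translation factor mRNA in untreated cells by chromosome, hsf1∆ over HSF1+ above and HSF1+ over WT below; red bars are medians of all genes tested on a chromosome. The 3 risers of the lower panel lie under the red bar of chromosome XIII at 0.97, and ANB1 lies at -3.13.

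ANB1 was the member that differed most between untreated strains, with 2.70, 1.38 and 1.33 CPM in HSF1+ and 14.3, 18.7 and 13.8 CPM in WT. The groups were far apart, and the log2 difference was -3.13 ± 0.28 (adjusted p = 2.12e-10). Its level in untreated hsf1∆ was 2.10, 2.44 and 0.488 CPM. ANB1 is the gene for eIF5A that is known to be repressed by Rox1 in aerated cells, and HYP2 is its aerobic partner. HYP2 had 1620, 1470 and 1433 CPM in HSF1+ and 1869, 1662 and 1633 CPM in WT, and its share of the counts of this pair was at least 98.7% in every library. The lowest count of any member in a library, 6, belonged to ANB1. The first 90 coding bases of the pair, read from the R64 genome, show that they can be told apart by few letters, with the 4 differing bases in capitals. Their coding sequences are 90.9% identical, and the longest identical run is 43 bases.
HYP2: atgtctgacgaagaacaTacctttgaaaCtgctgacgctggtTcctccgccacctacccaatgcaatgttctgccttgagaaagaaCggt
ANB1: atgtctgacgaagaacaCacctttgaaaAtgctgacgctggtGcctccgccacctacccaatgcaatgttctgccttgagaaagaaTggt

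Paralogs of the same factor changed unequally under stress in some pairs. TEF4 and CAM1 encode the gamma subunit of eEF1B, and their coding sequences are 69.6% identical. CAM1 had 452, 506 and 539 CPM in heat-shocked WT and 398, 513 and 483 CPM in untreated WT, overlapping groups, while TEF4 had 451, 329 and 314 CPM after heat shock, below all 3 untreated cultures. The share of TEF4 in the pair's counts was 42.1 ± 6.95% in heat-shocked WT (mean ± SD, n = 3), 71.3 ± 3.97% in AzC-treated WT and 85.7 ± 1.52% in untreated WT. CAM1 rose by 0.28 ± 0.10 in hsf1∆ and 0.25 ± 0.10 in HSF1+ after heat shock. It did not pass in hsf1∆ without heat-shocked hsf1∆ replicate 3, nor in HSF1+ without heat-shocked HSF1+ replicate 2, with RLE scaling, library size alone, DESeq2 or the compared groups alone. In labelled msn2/4∆ its change was -0.30 ± 0.10, a fall that passed. TIF4632, which is 60% identical to TIF4631, had 129.9, 152.2 and 142.7 CPM in heat-shocked WT and 129.01, 133.98 and 122.44 CPM in untreated WT, a change of 0.14 ± 0.07 that did not pass.

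TEF1 and TEF2 are 99.9% identical in their coding sequences, EFT1 and EFT2 (eEF2) 99.8%, and TIF1 and TIF2 (eIF4A) 99.5%, with identical runs of up to 761, 1262 and 644 bases. The sources used here do not say how reads that match both copies were assigned, so the values of these 6 genes taken singly are uncertain. The TEF1 share of its pair was 24.6 ± 5.05% in heat-shocked WT and 44.2 ± 0.979% in untreated WT, and it was 44.3 ± 6.62% in heat-shocked hsf1∆ and 41.5 ± 0.166% in untreated hsf1∆. The EFT1 share was 44.3 ± 1.51% in heat-shocked WT and 33.9 ± 0.466% in untreated WT. For TIF1 the share moved less, at 36.1 ± 3.23% in heat-shocked WT and 40.4 ± 0.803% in untreated WT. As sums, TEF1 with TEF2 changed by -1.24 after heat shock in WT (adjusted p = 2.74e-12), EFT1 with EFT2 by -2.34 and TIF1 with TIF2 by -2.33.

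**Figure D4:**
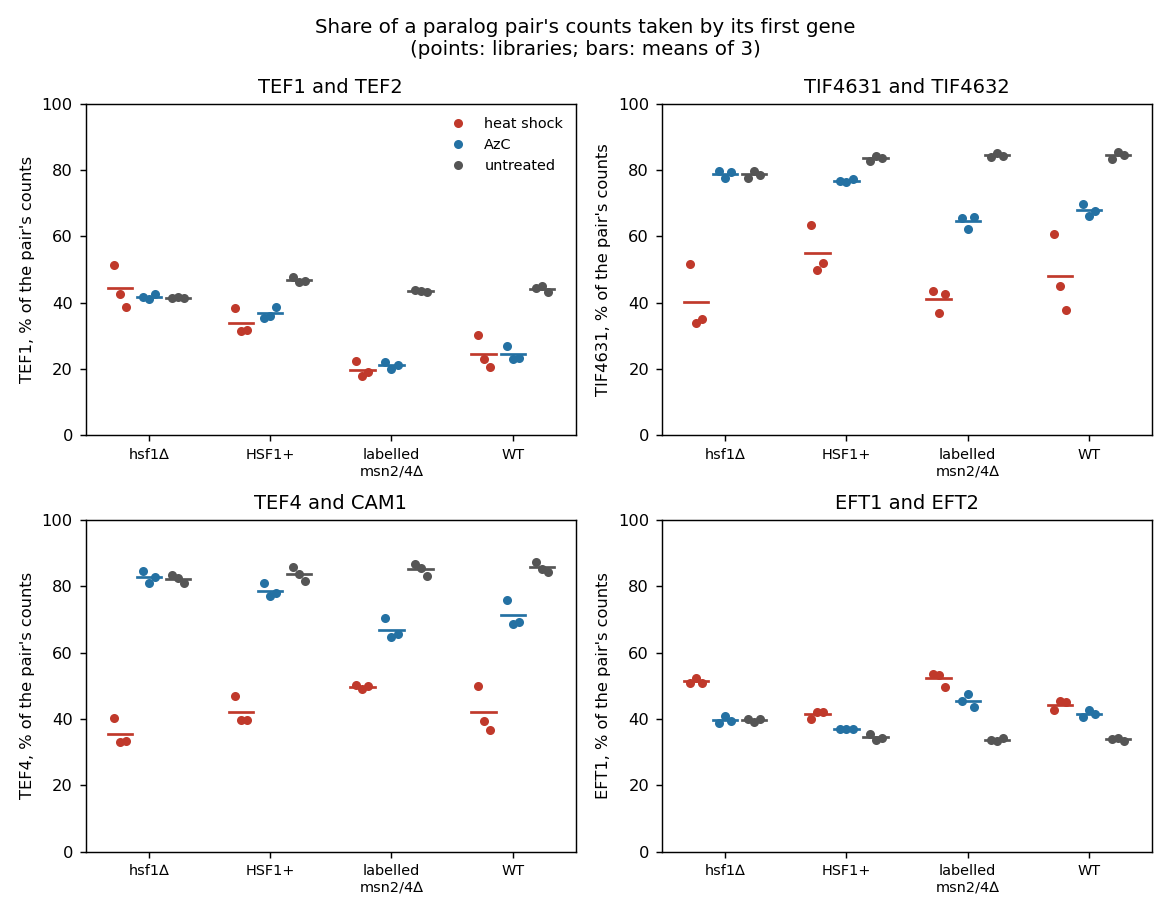
Share (%) of a paralog pair's counts held by its first gene in each of 36 libraries, for TEF1 and TEF2, TIF4631 and TIF4632, TEF4 and CAM1, and EFT1 and EFT2; points are libraries and bars are means of 3. The TEF4 share is 42.1% in heat-shocked, 71.3% in AzC-treated and 85.7% in untreated WT, and in AzC-treated hsf1∆ it is 82.8%, against 82.3% in untreated hsf1∆.

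Promoter letters were searched in windows from 250 bases before to 50 bases after the start codon, on both strands. The RRPE core AAATTTT, known from ribosome biogenesis genes, was in 28 of 39 members (71.8%), 30.4% of 138 ribosomal protein genes and 23.2% of 6001 genes. Of the other 7 motifs searched, the stress element STRE (AGGGG) was in 10.3% of members and 21.6% of genes, the short heat shock element TTCNNGAA in 15.4% and 12.9%, the PAC core CGATGAG in 5.13% and 7.02%, ATTGTT of Rox1 in 25.6% and 35.2%, and TATAAA in 35.9% and 45.2%. The Rap1 core ACCCNNACA and TGACTC of Gcn4 were in 0 members, and in 2.83% and 7.98% of genes. In ribosomal protein genes they were in 8.7% and 6.52%. Sites farther than 250 bases upstream, as the longer EFB1 matches are, lie outside the window. Windows had a median of 64.7% A or T in members, 62% in ribosomal protein genes and 64% in all genes. These matches are letters in a window and not measured binding.

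Paralogs did not follow the RRPE core in 1 way. TIF4631, TEF4 and HYP2 have it, and their partners TIF4632, CAM1 and ANB1 have no match in the window. TIF4631 and TEF4 fell after heat shock in WT and their partners did not pass, whereas in labelled msn2/4∆ TIF4632 (-0.32 ± 0.07) and CAM1 (-0.30 ± 0.10) fell too. For eIF5A the copy without the core had the larger change in WT, at -1.24 ± 0.24 for ANB1 and -0.56 ± 0.07 for HYP2. Both copies of eIF4A and of eEF2 have the core. Over all members, the median log2 change after heat shock was -1.60 for the 28 with a match and -1.15 for the 11 without in hsf1∆, -1.34 and -0.89 in HSF1+, -1.83 and -1.06 in labelled msn2/4∆, and -1.75 and -1.24 in WT. Over all genes tested that have a window, the medians in WT were -0.45 for 1355 genes with a match and 0.15 for 4372 without. After AzC the medians of members with and without a match were 0.04 and 0.05 in hsf1∆, and -1.001 and -0.49 in WT. The motif was singled out after 8 had been searched, and its part in the changes was not tested. To show the contrast within a pair, a run of 150 bases that begins 250 bases before the start codon is printed for TEF4 and CAM1, each 5′ to 3′ on its own strand from the R64 genome, with the RRPE core in capitals. The capitals cover AAATTTT and its other-strand form AAAATTT, which overlap in the TEF4 run. They lie at chrXI:282641-282790 for TEF4 and chrXVI:464151-464300 for CAM1, both on the plus strand.
TEF4: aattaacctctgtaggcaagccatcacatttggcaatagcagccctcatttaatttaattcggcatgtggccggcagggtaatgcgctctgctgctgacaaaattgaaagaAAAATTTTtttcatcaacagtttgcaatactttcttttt
CAM1: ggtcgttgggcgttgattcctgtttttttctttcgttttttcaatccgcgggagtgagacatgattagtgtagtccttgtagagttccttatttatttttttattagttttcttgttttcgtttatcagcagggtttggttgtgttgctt

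Other translation genes were counted from fixed lists. The shares of all genes called in each response are those given above. Ribosomal protein genes had larger median changes than the factors. Of 138, 137 fell after heat shock in hsf1∆, labelled msn2/4∆ and WT, with medians of -3.84, -3.78 and -3.47 on the log2 scale, and all but 2 fell in HSF1+, with a median of -2.78. After AzC 0 passed in hsf1∆, where the median was -0.04, and all but 10 fell in HSF1+ (-0.56), all but 2 in labelled msn2/4∆ (-1.81) and all but 2 in WT (-1.40). The aminoacyl-tRNA synthetase genes, whose products charge tRNAs, numbered 22. All 22 fell after heat shock in each strain, with medians of -1.72 in hsf1∆, -1.59 in HSF1+, -1.80 in labelled msn2/4∆ and -1.98 in WT. After AzC 0 passed in hsf1∆, 17 fell in HSF1+, 22 in labelled msn2/4∆ and 22 in WT. YHR020W, the prolyl-tRNA synthetase gene, whose enzyme handles the amino acid that AzC mimics, changed after AzC by 0.13 ± 0.21 in hsf1∆ and -0.31 ± 0.21 in HSF1+, neither past the threshold, and by -1.81 ± 0.21 in labelled msn2/4∆ and -1.41 ± 0.21 in WT.

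Of 16 genes whose products modify elongation factors, 15 fell after heat shock in each strain, and after AzC 0 passed in hsf1∆, 14 fell in HSF1+, 15 in labelled msn2/4∆ and 15 in WT. DPH5, which helps make the diphthamide residue of eEF2, changed by -2.12 ± 0.09 and DYS1, which starts the hypusine residue of eIF5A, by -1.72 ± 0.09 after heat shock in WT. All 5 genes of the eIF2 kinase pathway fell after heat shock in each strain, among them GCN4, the transcription factor that the pathway induces by translation, at -1.56 ± 0.09 in hsf1∆ and -1.21 ± 0.09 in WT. Of 4 repressors that bind the cap complex, CAF20 fell after heat shock in hsf1∆ (-1.27 ± 0.12) and WT (-1.83 ± 0.12), and EAP1 (0.55 ± 0.09) and SBP1 (0.32 ± 0.07) rose in WT. In labelled msn2/4∆ SBP1 fell, with a change of -0.31 ± 0.07, and its response differed from that in WT by -0.62 ± 0.10 (edgeR adjusted p = 2e-05). Of 16 other factors, 5 rose and 11 fell after heat shock in hsf1∆, 4 and 11 in HSF1+, 5 and 11 in labelled msn2/4∆, and 4 and 11 in WT. DBP1, a paralog of DED1, rose by 2.46 ± 0.12 and HEF3, a paralog of YEF3, by 1.68 ± 0.11 in heat-shocked WT, where STM1, which binds idle ribosomes, changed by -3.20 ± 0.14. HSC82, which the insertion places behind the TEF1 promoter, changed after heat shock by -0.95 ± 0.18 in hsf1∆ and 1.495 ± 0.18 in HSF1+, and after AzC by 0.14 ± 0.18 in hsf1∆ and 1.58 ± 0.18 in HSF1+. Its chromosomal copy and the inserted copy cannot be told apart in the counts.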

How the data were processed

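Poly(A)-selected RNA of 36 cultures was sequenced, and a merged table of read counts per gene was deposited. Per the submitters' processing notes, Trim Galore, FastQC, STAR, Salmon and build R64 were used, without versions, and no source used here names the tool that made the deposited counts, its strand setting or its annotation. Counts were analysed as deposited, with totals of 8159203 to 99558095.

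Genes were filtered by edgeR's filterByExpr, scaled by TMM and fitted in edgeR 4.0.16 (R 4.3.3) by the quasi-likelihood test with 12 group means over 36 libraries, and p-values were adjusted by Benjamini-Hochberg over 6109 genes. In all, 18 comparisons were made. Values with ± after a log2 change are standard errors of the fit. Groups came from the sample titles. The members and lists were chosen with earlier results of these data known. Any of the 39 members could be named, of the other lists the 3 genes with the lowest p in a comparison, and YHR020W, HSC82 and the genes that check the strains by a fixed rule. SSA1 was named after the values of its neighbour were seen.

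Same-numbered replicates deviated together (every correlation of deviations over 0.1) for heat shock in WT (0.117 to 0.361) and for AzC in WT. They also did so for AzC against heat shock in WT, and for untreated HSF1+ and untreated labelled msn2/4∆ against WT. In the other comparisons checked, the correlation was over 0.1 for replicates 1 and 3 and below it for replicate 2. The differences of responses between strains were not checked for pairing. The pairing comes from these correlations and not from the labels.

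Promoter windows and coding sequences were read from the R64 genome with its RefSeq annotation by Biopython 1.88. The stretch upstream of TEF2 is not reported here. Alternatives were RLE scaling, library size alone, no filter, DESeq2 1.42.0, a replicate block, the compared groups alone, deep libraries thinned, paralogs summed, replicates 2 and 3 alone, and each library left out. The procedure was tested on simulated data with 200 of 6109 genes changed. Changes of 1.5-fold were recovered in 69.7% of cases for heat shock in WT and 66.7% for AzC in hsf1∆. For the heat shock difference of hsf1∆ and HSF1+ it was 50%. Of the calls, 3.37%, 5.68% and 7.59% were false in the same order.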

Additional observations from a re-analysis of the deposited data

Results flagged for a closer look

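In 3 cases a member's response to one treatment differed between strains by a test of the difference itself, with an adjusted p below 0.05 and a difference of at least 2-fold.

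The heat shock response of EFB1 in hsf1∆ minus that in HSF1+ was -2.615 on the log2 scale (edgeR's quasi-likelihood test, adjusted p = 5.56e-11). All 3 heat-shocked hsf1∆ libraries were below all 3 untreated ones, while the HSF1+ groups overlapped.

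The same difference for TEF2 was -1.078 (edgeR, adjusted p = 6.03e-08), with the heat-shocked libraries of each strain below its untreated ones. The values of TEF2 taken singly depend on how reads shared with TEF1 were counted, and the sum of both genes gave -0.68.

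The AzC response of TEF1 in HSF1+ minus that in WT was 1.01 (edgeR, adjusted p = 0.00252). It too depends on the reads shared with TEF2.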

How the results depend on the processing

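In the 6 comparisons in which single members were followed, no member that passed the threshold changed sign under any alternative. Members that did not pass did change sign, in 88 of 577 alternative values for AzC in hsf1∆ and 87 of 811 for the heat shock difference of hsf1∆ and HSF1+, and in 2 to 14 values in each of the other 4 comparisons. When summed paralog pairs, each set against its first gene, are counted along with those values, 3807 stayed on their side of the threshold. Another 90 came to pass it and 57 no longer did. Counts moved by more than 1.5 times in these cases. Scaling by library size alone gave 10 in place of 21 members for untreated hsf1∆ against HSF1+, 3 in place of 6 for the heat shock response of HSF1+ against WT and 10 in place of 19 for its AzC response. With a replicate block, the difference between hsf1∆ and HSF1+ had 9 members for heat shock and 21 for AzC, and that between HSF1+ and WT had 12 for heat shock. The block changed no other count by more than 1.5 times, the paired comparisons included. With replicates 2 and 3 alone, the heat shock differences had 10 members for hsf1∆ against HSF1+ and 22 for HSF1+ against WT, and the AzC difference of HSF1+ and WT had 29. Fitting the compared groups alone gave 3, 5 and 2 for the heat shock differences of hsf1∆ against HSF1+, labelled msn2/4∆ against WT and HSF1+ against WT, and 21 for the AzC difference of hsf1∆ and HSF1+, for which DESeq2 gave 14. The cause of these moves was not tested.

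Leaving out 1 library gave 34 to 37 members for heat shock in hsf1∆, 34 to 35 in HSF1+, 36 to 38 in labelled msn2/4∆ and 35 to 36 in WT. For AzC it gave 0 in hsf1∆, 15 to 22 in HSF1+, 32 to 33 in labelled msn2/4∆ and 32 to 33 in WT, and 31 to 34 for AzC against heat shock in WT. In untreated cells it gave 12 to 20 for hsf1∆ against HSF1+, 8 to 14 for HSF1+ against WT and 0 for labelled msn2/4∆ against WT. The heat shock differences had 3 to 9 for hsf1∆ against HSF1+, 4 to 12 for labelled msn2/4∆ against WT and 4 to 22 for HSF1+ against WT, and the AzC differences had 6 to 12, 0 to 1 and 12 to 22 in the same order.

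With library size alone the median log2 value of all genes lay farther than 0.1 from 0 in 7 comparisons. It was 0.27 after heat shock in labelled msn2/4∆, where the members' median was then -1.54, and 0.12 in WT, where it was -1.46. Depth limits ANB1 most, with counts as low as 6.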
